A study of Rattus norvegicus with 14 samples.

Results

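The genes described here make, load, take up and break down the inhibitory transmitter GABA, or mark the interneurons that use it, in cultured rat hippocampal neurons and astrocytes. The 9 members are Gad1, Gad2, Slc32a1, Slc6a11, Abat, Sst, Npy, Calb2 and Dlx1. They were listed by symbol, and the choice was made with earlier results of these data known. All 9 were listed among the 18239 genes of the neuron table and the 31791 genes of the astrocyte table. The minimum mean of 10 normalized counts was passed by 9 members in neurons, where 15314 genes were tested, and by 3 members in astrocytes, where 15380 genes were tested.

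GABA is made from glutamate by glutamate decarboxylase, an enzyme with an isoform for each of the genes Gad1 and Gad2, and is packed into synaptic vesicles by the transporter encoded by Slc32a1. Released GABA is taken up by membrane transporters, of which the one encoded by Slc6a11 is known mainly from astrocytes, and is degraded by GABA transaminase, the product of Abat. In the hippocampus GABA is the transmitter of interneurons, a minority of neurons that arise outside the hippocampus under transcription factors of the Dlx family, and that are told apart by peptides such as somatostatin (Sst) and neuropeptide Y (Npy) and by calcium-binding proteins such as calretinin (Calb2).

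Cells came from hippocampi of Sprague Dawley rats at embryonic day 18, and all groups were kept in AM medium, a supplement-reduced condition that serves as an aging model. AM medium differed by cell type, being Neurobasal with less supplement for neurons and another base medium with charcoal-stripped serum for astrocytes. Neurons on day 10 spent 4 h in AM medium and then 16 h with 100 nM allopregnanolone (Allo), a neurosteroid that acts on GABA-A receptors, or with vehicle (Veh, 0.001% ethanol). Astrocytes were shaken free of other glia, replated, and spent 24 h in AM medium and 24 h with the same dose of Allo or with vehicle. RNA-seq gave 4 AM-Veh and 4 AM-Allo neuron libraries, numbered 1-1, 1-2, 2-1 and 2-2 in each group, and 3 AM-Veh and 3 AM-Allo astrocyte libraries. The labels do not say what either part of a neuron number stands for, nor that the libraries came from separate cultures, so p-values measure the spread between these libraries alone, which may be technical.

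Values are normalized counts, which are reads per gene after the authors divided out the depth of each library. From the step between low values, the neuron libraries held about 19600000 to 25200000 reads and the astrocyte libraries about 22200000 to 28600000. The neuron cultures were mixed. The neuronal marker Map2 stood at 24729 ± 682 normalized counts in AM-Veh (SD, n = 4), and the astrocyte marker Gfap at 94233 ± 22406. Summed over 7 astrocyte markers, normalized counts were 189554 to 249329 in AM-Veh neuron libraries and 188604 to 242104 in AM-Allo, and 0 of the 7 passed an unadjusted p of 0.05 between the treatments. Astrocyte cultures held Gfap at 135934 ± 4332 in AM-Veh (SD, n = 3), while the mature neuron marker Rbfox3 was at 0.460 ± 0.797. Of the other neuronal markers there, Stmn2 stood at 21790.3 ± 295 and Map2 at 3873 ± 192. In the AM-Veh neuron libraries Stmn2 was lower, at 8802 to 10177, though the cell types were normalized separately. In such bulk libraries, fewer cells of a type and less RNA per cell cannot be told apart.

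Of the 9 members in neurons, Sst and Gad2 passed an unadjusted p of 0.05 between AM-Allo and AM-Veh, both lower with Allo. Of all genes 5.69% passed, and 2.48% did so as lower with Allo. Gad1 and Dlx1 missed that threshold narrowly, with negative log2 fold changes. After adjustment over all genes, 0 of 9 members passed in limma, against 0.0261% of all genes. The libraries whose number starts with 1 differed from those whose number starts with 2 for 7 of the 9 members, against 17.2% of all genes. With the first number as a block Gad1, Gad2 and Sst passed an adjusted p of 0.05 in limma, against 0.679% of all genes. Without a trend of the variance with expression in that fit, 0 members passed. With each library left out in turn, Sst alone of these genes always kept its adjusted call. Both treatments are shown library by library in the plot of normalized counts in neurons.

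**Figure D1:**
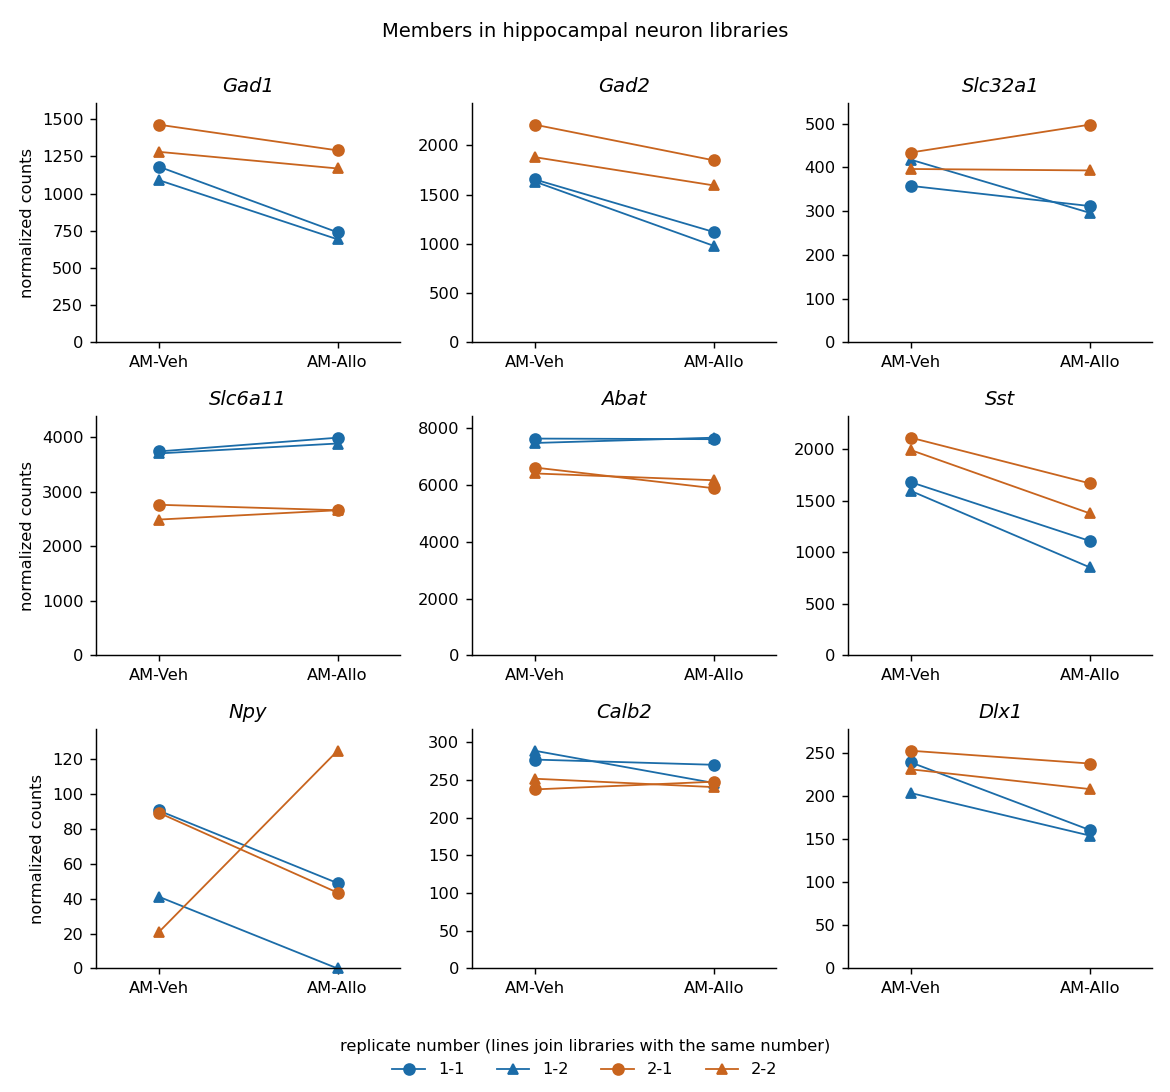
Normalized counts (vertical axes, from 0) of each of the 9 members in the 8 neuron libraries, AM-Veh on the left and AM-Allo on the right of each panel, with lines joining libraries that carry the same replicate number and colour giving the first part of that number. Lines for Gad1, Gad2, Sst and Dlx1 slope down in 4 of 4 same-numbered libraries, while those of Slc6a11, Abat and Calb2 run nearly level and those of Npy cross.

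Gad1 encodes the larger glutamate decarboxylase, GAD67, which makes GABA throughout the cell. Gad1 was at 1181, 1091, 1463 and 1280.2 normalized counts in AM-Veh libraries 1-1, 1-2, 2-1 and 2-2, and at 739, 692, 1290 and 1168 in the AM-Allo libraries in the same order. Each AM-Allo library was below the AM-Veh library of its number, but the groups overlapped, since both AM-Allo libraries of first number 2 were above an AM-Veh library of first number 1. Means were 1254 ± 159 with vehicle and 972 ± 301 with Allo (SD, n = 4 each). The log2 fold change was −0.41 with a standard error of 0.19, an unadjusted p of 0.0529 and a Benjamini-Hochberg adjusted p of 0.880 in limma, and the two-sided exact permutation p was 0.2. Single libraries moved this value, since the log2 fold change was −0.27 (limma p of 0.156) without AM-Allo 1-2. It passed the unadjusted threshold when AM-Veh 1-2 was left out (−0.48, limma p of 0.0465). Leaving out AM-Allo 2-1 gave −0.56 (0.00811), and leaving out AM-Allo 2-2 gave −0.52 (0.0236).

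Gad2 encodes the smaller isoform, GAD65, which sits at synaptic vesicles. Gad2 was at 1655.5, 1634, 2212 and 1882 normalized counts in AM-Veh libraries 1-1 to 2-2 and at 1122, 981, 1849 and 1595 in AM-Allo. Within either first number, both AM-Allo libraries were below both AM-Veh libraries, and the groups overlapped only across first numbers. Gad2 fell by 0.45 on the log2 scale with a standard error of 0.18, at an unadjusted limma p of 0.0322, with a Benjamini-Hochberg adjusted p of 0.799 and an exact permutation p of 0.114. That unadjusted call was lost when 1 of 4 libraries was left out, namely AM-Veh 2-1 (giving a limma p of 0.0944), AM-Veh 2-2 (0.0619), AM-Allo 1-1 (0.0889) or AM-Allo 1-2 (0.0932). In the last case the log2 fold change was −0.30.

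Slc32a1 encodes the vesicular GABA transporter. Slc32a1 was at 358, 418, 434 and 396 normalized counts in AM-Veh and at 312, 296, 498 and 393 in AM-Allo. The AM-Allo libraries of first number 1 were the lowest of the 8 and AM-Allo 2-1 was the highest. Slc32a1 had a log2 fold change of −0.13 with a standard error of 0.15, and the unadjusted limma p was 0.404. Its interval of −0.45 to 0.20 reaches the size of the change measured for Gad1. Single libraries decided this value too, which was −0.27 at a limma p of 0.0314 without AM-Allo 2-1, and so called, but −0.02 without AM-Allo 1-2 and −0.05 without AM-Allo 1-1.

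Sst encodes somatostatin, the peptide of dendrite-targeting interneurons. Sst was at 1683, 1598, 2114 and 1994 normalized counts in AM-Veh and at 1112, 855, 1671 and 1379.5 in AM-Allo. As for Gad2, AM-Allo and AM-Veh did not overlap within either first number, and AM-Allo 2-1 was above AM-Veh 1-2. Means were 1847 ± 246 and 1254 ± 351 (SD, n = 4 each), a ratio of 0.679. Sst fell by 0.59 on the log2 scale with a standard error of 0.18, at an unadjusted limma p of 0.00677. The Benjamini-Hochberg adjusted p was 0.650 in limma, and the two-sided exact permutation p was 0.0571, where 0.0286 is the smallest that 4 libraries against 4 allow. With each library left out in turn, the log2 fold change of Sst kept its direction and stayed past an unadjusted p of 0.05, with a highest p of 0.0227 in limma, without AM-Veh 2-1.

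Npy encodes neuropeptide Y, which several interneuron types release. Npy was at 90.5, 41.2, 89.3 and 20.7 normalized counts in AM-Veh and at 48.9, 0, 43.4 and 125 in AM-Allo. The values of both groups were scattered over the same range, and AM-Allo 1-2 was listed at 0. Its log2 fold change of −1.19 had a standard error of 1.24 and an unadjusted limma p of 0.358. Without AM-Allo 1-2 the log2 fold change of Npy was 0.32, so 1 library set its direction.

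Calb2 encodes calretinin, a calcium-binding protein of interneurons that often contact other interneurons. Calb2 was at 277, 289, 238 and 252 normalized counts in AM-Veh and at 270.3, 246, 248 and 241 in AM-Allo. The groups overlapped, and the highest library was 1.22 times the lowest. Its log2 fold change was −0.07 (95% interval −0.25 to 0.11, exact permutation p = 0.343).

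Dlx1 encodes a homeobox factor of developing interneurons. Dlx1 was at 239, 203, 252 and 231 normalized counts in AM-Veh and at 160.3, 154, 237 and 208 in AM-Allo. AM-Allo was lower in 4 of 4 same-numbered libraries, and the AM-Allo libraries of first number 1 were the lowest of the 8. The log2 fold change was −0.30 with a standard error of 0.14, an unadjusted limma p of 0.0546 and an exact permutation p of 0.171. Dlx1 passed the unadjusted threshold without AM-Veh 1-2 (limma p of 0.0382), AM-Allo 2-1 (0.00808) or AM-Allo 2-2 (0.0433).

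Slc6a11 encodes GAT3, the uptake transporter of astrocytes. Slc6a11 was at 3735, 3699, 2759 and 2487 normalized counts in AM-Veh and at 3987, 3880.5, 2659 and 2658 in AM-Allo. All 4 libraries of first number 1 were above all 4 of first number 2, whatever the treatment. The log2 fold change between treatments was 0.05 (95% interval −0.32 to 0.43, exact permutation p = 0.571).

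Abat encodes GABA transaminase, the mitochondrial enzyme that breaks GABA down in neurons and glia alike. Abat was at 7623, 7468, 6606 and 6397 normalized counts in AM-Veh and at 7602, 7654, 5878 and 6159 in AM-Allo. As with Slc6a11, the libraries of first number 1 were all above those of first number 2. The log2 fold change between treatments was −0.05 (95% interval −0.25 to 0.16, exact permutation p = 0.629).

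Set against the whole table, 2 of 9 members (Gad2 and Sst) passed an unadjusted p of 0.05, both lower with Allo, where 5.69% of all genes passed and 2.48% did so as lower with Allo. After adjustment 0 of 9 members passed in limma, against 0.0261% of all genes. The median log2 fold change of the 9 members was −0.30, and that of all genes tested was −0.00. All AM-Allo values lay under all AM-Veh values for 0 of 9 members and 1.89% of all genes. This held within both first numbers for 2 members, Gad2 and Sst, against 4.94% of all genes. AM-Allo was lower in 4 of 4 same-numbered libraries for Gad1, Gad2, Sst and Dlx1, which is 4 of 9 members, against 9.26% of all genes. The members were chosen with earlier results of these data known, so such shares, here and below, describe them and test no excess.

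The first part of the replicate number separated the libraries for most of these genes. With treatment in the same limma fit, 7 of 9 members differed between first number 2 and first number 1 at a Benjamini-Hochberg adjusted p under 0.05, against 17.2% of all genes. Gad1, Gad2, Sst, Slc32a1 and Dlx1 were higher in first number 2, by 0.52, 0.51, 0.48, 0.32 and 0.31 on the log2 scale. Slc6a11 fell by 0.53 and Abat fell by 0.28 on the log2 scale from first number 1 to first number 2. Gad1 averaged 926 normalized counts in the 4 libraries of first number 1 and 1300.1 in those of first number 2, a gap wider than that between the treatment means. Markers of glia differed along with them, not all in the same direction. Of 7 astrocyte markers tested, 4 were higher in first number 2 and 1 was lower at an adjusted p under 0.05 in limma. Gfap was higher there by 0.62. Of 7 oligodendrocyte lineage markers tested, 1 was higher and 5 were lower in first number 2 at that threshold. Mbp, a myelin protein gene of oligodendrocytes, was lower there with a log2 difference of −0.96. Their part in the differences of the members was not tested.

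With the first number as a block, Allo and vehicle were compared within each first number. Then 4 of 9 members passed an unadjusted p of 0.05 in limma (Gad1, Gad2, Sst and Dlx1, all lower with Allo). Of all genes 11.0% passed in either direction, 882 higher and 802 lower out of 15314. Gad1, Gad2 and Sst, 3 of the 9, also passed a Benjamini-Hochberg adjusted p of 0.05 in that limma fit, against 0.679% of all genes in either direction. The adjusted p was 0.0392 for Gad1, 0.0178 for Gad2, 0.00452 for Sst and 0.235 for Dlx1. The fold changes were those given above, and the standard errors shrank to 0.08 for each of Gad1, Gad2 and Sst. With the whole number as the block the same 3 members passed, against 0.607% of all genes in either direction, with limma adjusted p of 0.0445, 0.0121 and 0.00156.

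These adjusted calls rested on the model of the variance. When limma was run with 1 variance prior for all genes instead of a trend with expression, the blocked adjusted p was 0.400 for Gad1, 0.353 for Gad2 and 0.304 for Sst, and 1 of 15314 genes passed. With the trend and the block kept, Sst stayed under an adjusted p of 0.05 with each library left out in turn. Gad1 then lost its adjusted call without AM-Veh 1-1, 1-2 or 2-1 (limma adjusted p = 0.054, 0.14 and 0.116) and without AM-Allo 1-1, 1-2 or 2-2 (0.124, 0.0913 and 0.106). Gad2 lost it without AM-Veh 1-2 or 2-1 (0.0691 and 0.0721) and without AM-Allo 1-1 or 2-2 (0.056 and 0.0734).

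**Figure D2:**
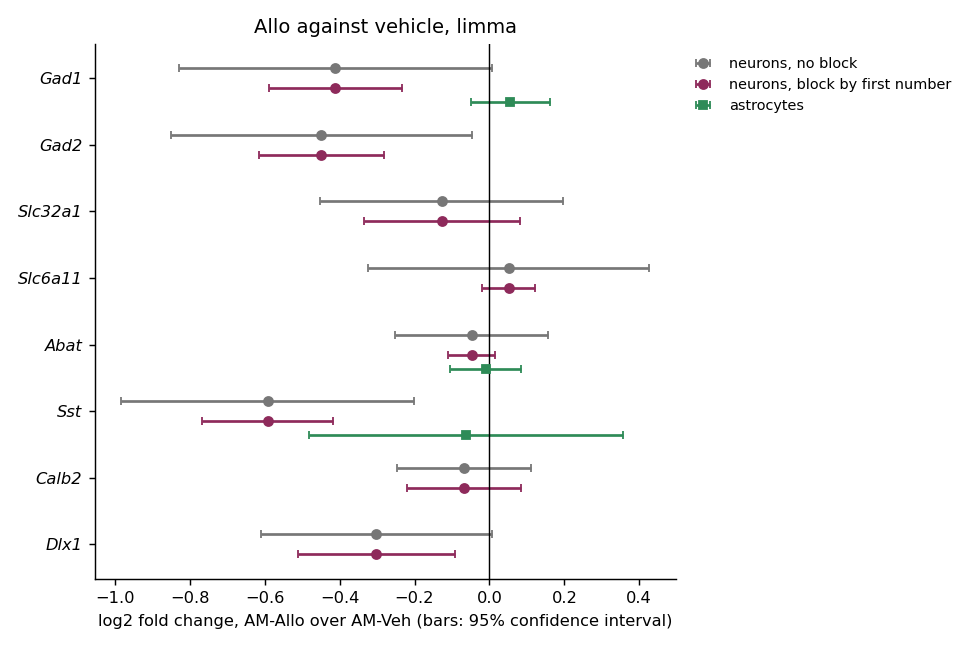
Log2 fold change of AM-Allo over AM-Veh (horizontal axis) with its 95% confidence interval from limma, for 8 members in neurons without a block (grey) and with a block by first number (purple), and for the 3 members tested in astrocytes (green squares); Npy, whose interval runs from −3.93 to 1.55, is left out. Blocked intervals of Gad1, Gad2, Sst and Dlx1 lie below 0, and all 3 astrocyte intervals include 0.

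Within first number 1, 6 of 9 members (Gad1, Gad2, Slc32a1, Sst, Npy and Dlx1) were lower with Allo at an unadjusted limma p under 0.05. Of all genes 7.25% passed there, counted in either direction. For Npy the groups overlapped even so, with AM-Allo 1-1 at 48.9 above AM-Veh 1-2 at 41.2, and AM-Allo 1-2 was listed at 0. Within first number 2, 4 of 9 were lower at that threshold (Gad1, Gad2, Sst and Abat), against 13.6% of all genes in either direction. The log2 fold change of Gad1 was −0.67 in first number 1 and −0.16 in first number 2. For Gad2 the pair of values was −0.65 and −0.25, and for Sst it was −0.75 and −0.44. Dlx1 was at −0.48 and −0.12, Slc32a1 at −0.35 and 0.09, and Abat at 0.02 and −0.11.

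The difference between the first numbers was tested itself. The Allo effect differed at an unadjusted p of 0.05 for 6 of 9 members, against 9.53% of all genes, and after adjustment for 0 of 9 in limma, against 0.0784% of all genes. For Gad1 the effect in first number 2 was higher than that in first number 1 by 0.51 on the log2 scale (standard error 0.10), with a Benjamini-Hochberg adjusted p of 0.107 in limma. Each such value rests on 2 libraries per treatment and first number.

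**Figure D3:**
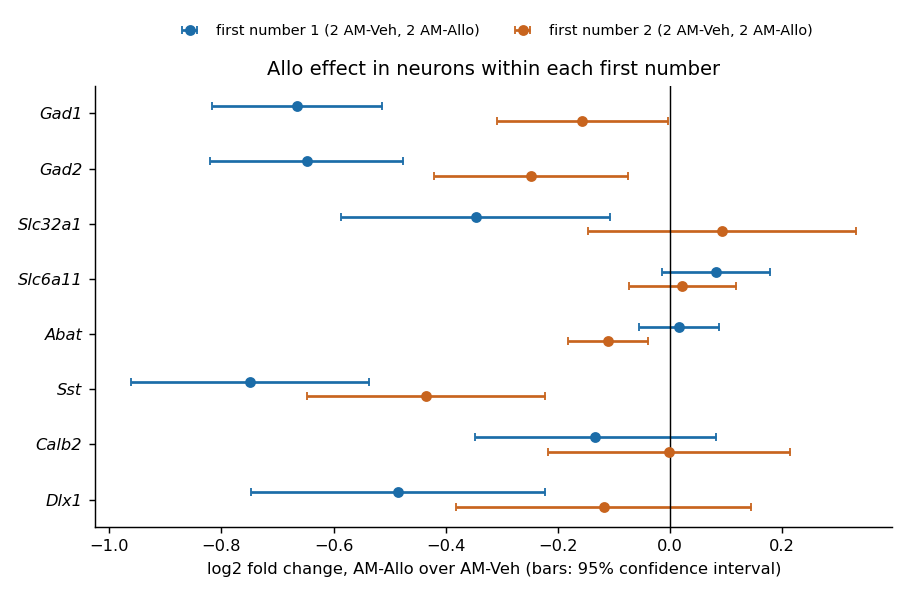
Log2 fold change of AM-Allo over AM-Veh (horizontal axis) with its 95% confidence interval from limma, fitted within first number 1 (blue) and within first number 2 (orange), for 8 members in neurons; Npy, at −3.14 and 0.76, is left out. Gad1, Gad2, Slc32a1, Sst and Dlx1 lie further below 0 in first number 1 than in first number 2.

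The GABAergic members were also set against markers of glutamatergic neurons within each library, a ratio that does not depend on how a library was scaled. Summed normalized counts of Gad1, Gad2 and Slc32a1 over those of the vesicular glutamate transporters Slc17a6 and Slc17a7 gave a log2 ratio of 0.35, 0.57, 0.89 and 0.88 in AM-Veh libraries 1-1 to 2-2. In AM-Allo the ratio was −0.24, −0.25, 0.36 and 0.20. It was lower with Allo for each of the 4 numbers, and AM-Allo 2-1 overlapped AM-Veh 1-1. Both sides of the ratio moved, as Slc17a7 rose by 0.29 on the log2 scale at an unadjusted limma p of 0.00419 (Benjamini-Hochberg adjusted p = 0.589). Summed Slc17a6 and Slc17a7 ran 2506, 2122, 2217 and 1939 in AM-Veh and 2571, 2346, 2829 and 2745 in AM-Allo. Their rise was thus larger in first number 2, where the fall of Gad1 and Gad2 was smaller. Normalized counts of Sst per 100 of Gad1 and Gad2 together ran 59.3, 58.7, 57.5 and 63.1 with vehicle and 59.7, 51.1, 53.2 and 49.9 with Allo. This ratio thus spanned 49.9 to 63.1 over the 8 libraries. Gad2 was 1.36 to 1.52 times Gad1 in normalized counts over all 8 libraries, a value not corrected for transcript length.

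**Figure D4:**
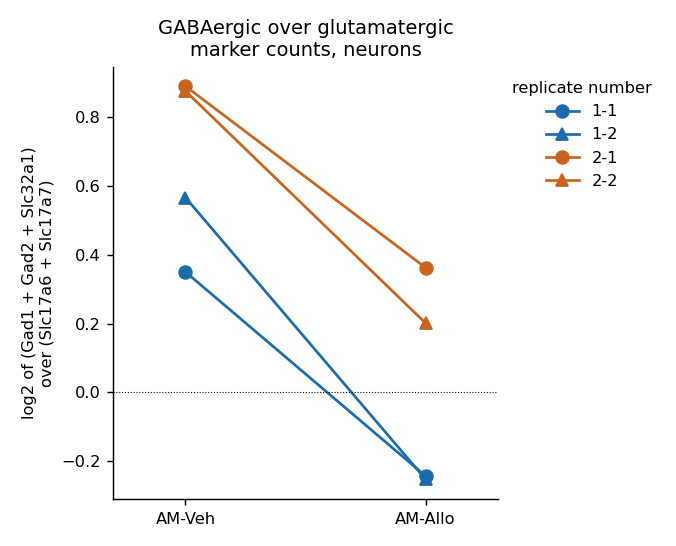
Log2 ratio of the summed normalized counts of Gad1, Gad2 and Slc32a1 to those of Slc17a6 and Slc17a7 (vertical axis) in the 8 neuron libraries, with lines joining libraries of the same number and colour giving its first part. Each line slopes down from AM-Veh, at 0.35 to 0.89, to AM-Allo, at −0.25 to 0.36.

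Other genes of the pathway gave the members a setting. Of 16 genes of GABA handling, the members included, 13 were tested in neurons, and 1, Gad2, passed an unadjusted p of 0.05. Glul, the glutamine synthetase of astrocytes, had 30472 ± 4212 normalized counts with vehicle and 31043 ± 5516 with Allo (SD, n = 4 each), with a log2 fold change of 0.02. The median log2 fold change over the 13 genes was −0.03.

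Of 18 interneuron markers, 15 were tested, and 1, Sst, passed an unadjusted p of 0.05, with a median log2 fold change of 0.01. Reln, a secreted matrix protein of Cajal-Retzius cells and some interneurons, was at 1949 ± 286 in AM-Veh and 1639 ± 383 in AM-Allo (SD, n = 4 each), a log2 fold change of −0.27. With the block by first number Reln passed as lower with Allo, at a Benjamini-Hochberg adjusted p of 0.0403 in limma. The cannabinoid receptor gene Cnr1, the highest of the list in neurons, had a log2 fold change of 0.11 with an unadjusted limma p of 0.116. Under the block 3 markers passed an unadjusted p of 0.05 as lower with Allo (Sst, Penk and Reln) and 3 as higher (Cck, Nos1 and Cnr1). In that fit 11.0% of all genes passed, in either direction. Without the block, 8 of the 15 markers had a positive log2 fold change and 7 a negative one. Interneuron markers thus did not move one way, and those called lower under the block were the genes for somatostatin, enkephalin and reelin.

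Among 18 interneuron transcription factors 16 were tested, and 0 passed an unadjusted p of 0.05 in limma without the block. In that fit log2 fold changes were negative for 10 and positive for 6 of the 16. Of all genes 11.0% passed with the block by first number, in either direction. Of these transcription factors 4 then passed as lower with Allo and 0 as higher. Beside Dlx1 these included Lhx6, a factor of interneurons from the medial ganglionic eminence, with a log2 fold change of −0.58, and Dlx5 with −0.54. The highest of the list, Sox6 and Nr2f1, had log2 fold changes of 0.04 and 0.03. Their medians and counts describe these libraries, and Benjamini-Hochberg adjusted p for the 4 genes was 0.135 or more in limma.

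Receptors for the member peptides were low in neurons. Of 8 receptors for neuropeptide Y and somatostatin 5 were tested, and 1, the somatostatin receptor Sstr4, passed an unadjusted p of 0.05, with 57.9 ± 5.34 normalized counts under vehicle and 70.5 ± 5.19 under Allo (SD, n = 4 each). Among 10 glutamatergic markers 2 passed, both higher with Allo, namely Slc17a7 and the cortical factor Tbr1 with a log2 fold change of 0.21. Of the 10, 6 had a positive and 4 a negative log2 fold change. With the block by first number 3 passed as higher and 1 as lower. Of 5 pan-neuronal markers tested, Tubb3 (0.21) and Map2 (0.10) passed as higher with Allo. With the block by first number 3 of these 5 passed as higher and 0 as lower. Within first number 1, however, Syt1, a synaptic vesicle protein gene, was at 4222 and 3771 normalized counts with vehicle and 3522 and 3282 with Allo, a log2 fold change of −0.23 (unadjusted limma p of 0.00486), against 0.08 in first number 2. Rbfox3 was there at 502 and 476 with vehicle and 453 and 390 with Allo, a log2 fold change of −0.22 (0.0341). Map2 went the other way there, at 25576 and 24671 with vehicle and 26990 and 25684 with Allo. Tubb3 did too, at 9551 and 8879 with vehicle and 9883 and 9744 with Allo. Stmn2 was there at 10177 and 9007 with vehicle and 9487 and 9477 with Allo. The part of these markers in the member values was not tested. Of 7 oligodendrocyte lineage markers, 1 microglia marker and 5 mesenchymal or endothelial markers tested, 0 passed an unadjusted p of 0.05 in limma without the block. With the block by first number, the fit that gave the members' adjusted calls, 5 of the 7 oligodendrocyte lineage markers passed that threshold as higher with Allo. Mbp and Sox10 were among them, and 0 of the 7 passed as lower. In that fit 11.0% of all genes passed, in either direction. Col3a1, a collagen gene of mesenchymal cells, also passed as higher, as did the astrocyte marker Slc1a2, and Gja1, another astrocyte marker, passed as lower. The part of these cells in the member values was not tested.

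In neurons, the genes whose log2 values over the 8 libraries lay closest to those of Gad1 were Gad2, at a root mean square difference of 0.0523, Adcyap1 at 0.11 and Gldn at 0.118. Closest to Sst were Gldn at 0.0975, Gad2 at 0.099 and Gad1 at 0.134. The deviations of Gad1 itself had a root mean square of 0.363 and those of Sst one of 0.408. These are descriptions over libraries that share treatment and first number.

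Sequence around the starts of Gad1, Gad2 and Sst, the 3 members with an adjusted call in the blocked fit, is shown because the study concerns the factor CREB, which binds the cyclic AMP response element (CRE). RefSeq promoter windows of rat genome build GRCr8, which is not the annotation the authors quantified against, were found for 7 of 9 members, all but Abat and Calb2. Each window holds 250 bases before the annotated start and 50 from it on, and was searched on both strands for TGACGTCA, the full CRE, held by 1.83% of 33469 promoters, and for its first part TGACG, held by 21.2%. The full element was found in 1 of 7 members, Sst, on the plus strand at bases 3 to 10 counted from the annotated start as 1. TGACG was found in 2 of 7, within that element of Sst and in Slc32a1 at 180 to 176 bases before the start and at bases 27 to 31 after it. Gad1 and Gad2 held neither run of letters in these windows, which leaves sites elsewhere unexamined. The stretches printed run from 100 bases before the start to base 20, all on the plus strand, for Gad1 (chr3:75777352-75777471), Gad2 (chr17:89671618-89671737) and Sst (chr11:90461446-90461565), and capitals mark the CRE.
Gad1: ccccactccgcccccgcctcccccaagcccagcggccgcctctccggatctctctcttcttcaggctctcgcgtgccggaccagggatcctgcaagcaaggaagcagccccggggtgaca
Gad2: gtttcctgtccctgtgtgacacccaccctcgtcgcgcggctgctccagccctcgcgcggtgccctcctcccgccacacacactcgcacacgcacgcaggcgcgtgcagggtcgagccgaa
Sst: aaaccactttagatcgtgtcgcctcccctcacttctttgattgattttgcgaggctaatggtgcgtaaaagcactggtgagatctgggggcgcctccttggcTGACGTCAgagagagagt

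In astrocytes, Gad1, Abat and Sst passed the minimum, and none of the 3 passed a test between AM-Allo and AM-Veh. At an unadjusted limma p of 0.05 the count was 0 of 3 members against 7.01% of all genes, and after adjustment 0 of 3 against 0.00650%. Gad1 was at 1886, 1719 and 1805 normalized counts in AM-Veh and at 1782, 1892 and 1948 in AM-Allo. The groups overlapped, and the log2 fold change was 0.06 (95% interval −0.05 to 0.16, exact permutation p = 0.4, where 0.1 is the smallest that 3 libraries against 3 allow).

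Abat in astrocytes was at 1515, 1627 and 1583 normalized counts in AM-Veh and at 1592, 1569 and 1528 in AM-Allo. Its log2 fold change was −0.01 (95% interval −0.11 to 0.08), so a change of the size seen for Gad2 in neurons lay outside the interval. Sst was at 64.8, 86.2 and 89.7 normalized counts in AM-Veh and at 67.3, 95.9 and 68.1 in AM-Allo. For Sst the log2 fold change was −0.06 with a wider interval of −0.48 to 0.36. The genes closest in pattern to Abat over the 6 astrocyte libraries were Prrc2b, Ctsl and Gpx1, at root mean square differences of 0.00735, 0.0106 and 0.0123, where Abat itself varied by 0.0348.

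The other 6 members were at or near 0 in astrocytes and were not tested. Gad2 was at 8.24, 7.27 and 10.6 normalized counts in AM-Veh and at 16.02, 7.56 and 6.70 in AM-Allo. Dlx1 was at 3.14 to 8.46 in AM-Veh and 5.38 to 8.65 in AM-Allo, Slc6a11 at 0.871 to 6.69 over all libraries, and Calb2 at 0 to 4.16. Slc32a1 was at 1.07 in AM-Allo 1 and at 0 in the other 5 libraries, and Npy was listed at 0 in all 6. At 1 read to about 1 normalized count, these values stand on a few reads each.

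Levels in the 2 kinds of culture can be set side by side in CPM, which are normalized counts per 1000000 of the library's total, without a test, since their tables were normalized separately. Gad1 averaged 77.0 CPM in astrocytes and 50.2 CPM in neurons, and every astrocyte library was above every neuron library. Gad2, the partner isoform, averaged 0.394 in astrocytes and 72.9 in neurons. The cultures labelled astrocytes thus held mRNA of Gad1 with little of Gad2 or of the vesicular transporter Slc32a1 (0.00750 CPM against 17.5). Abat averaged 65.7 CPM in astrocytes against 313 in neurons, and Sst 3.29 against 69.9.

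Slc6a11 went the same way, at 0.0896 CPM in astrocytes and 146 in neurons. Its level was thus near 0 in cultures where Gfap, the astrocyte marker, stood at 135934 normalized counts with vehicle. Dlx1 averaged 0.261 CPM against 9.49, Calb2 0.0490 against 11.6, and Npy 0 against 2.58. For 8 of the 9 members the neuron mean was therefore the higher, Gad1 being the exception.

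**Figure D5:**
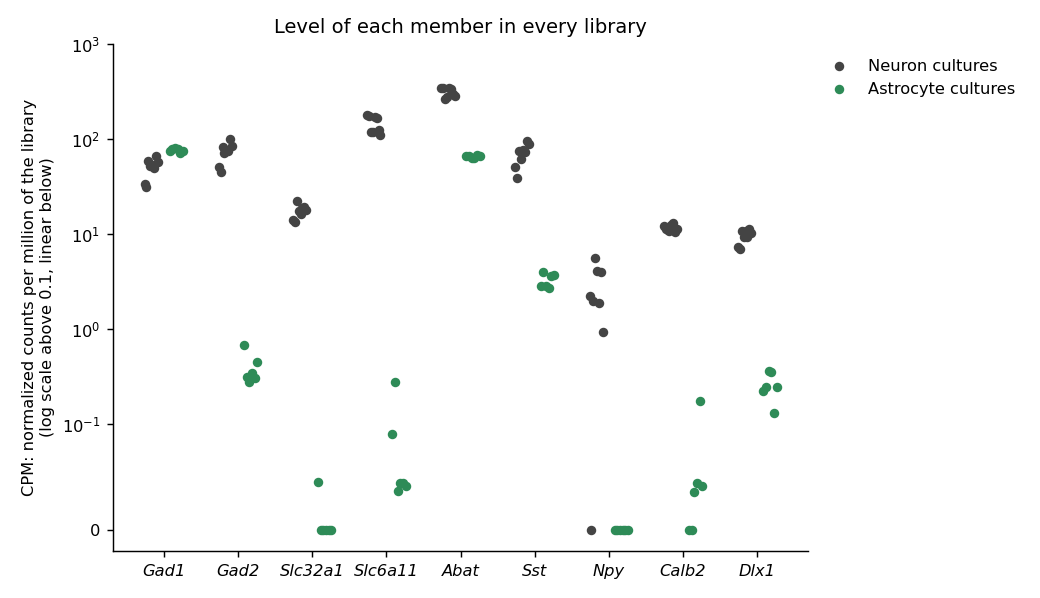
CPM of each member (normalized counts per 1000000 of the library's total, vertical axis, logarithmic above 0.1 and linear below) for the 9 members in the 8 neuron libraries (dark) and the 6 astrocyte libraries (green). Astrocyte points lie above neuron points for Gad1 alone, and those of Npy, Slc32a1, Slc6a11 and Calb2 lie at or near 0.

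The lists around the members in astrocytes gave few calls. Of 9 GABA handling genes tested there 0 passed an unadjusted p of 0.05 in limma, and Glul stood at 29424 ± 696 normalized counts with vehicle (SD, n = 3) with a log2 fold change of 0.03. Of 9 interneuron markers tested 2 passed, both lower with Allo. All 9 had a negative log2 fold change, with a median of −0.11 against 0.00 over all genes tested, and so had all 4 pan-neuronal markers tested, with a median of −0.11. Of these 4, Map2 passed as lower, at 3873 ± 192 normalized counts with vehicle and 3551 ± 248 with Allo (SD, n = 3 each), at an unadjusted limma p of 0.0299. Calb1, which encodes the calcium-binding protein calbindin, was at 7328 ± 553 in AM-Veh and 6331 ± 148 in AM-Allo, a log2 fold change of −0.21 with a Benjamini-Hochberg adjusted p of 0.294 in limma. Penk, the enkephalin gene, was at 3179 ± 266 and 2884 ± 111, a log2 fold change of −0.14 with an adjusted limma p of 0.660. Of 10 interneuron transcription factors 0 passed, with Nr2f1 the highest at 7417 normalized counts in AM-Veh. The microglial receptor gene Cx3cr1 was lower with Allo at an unadjusted limma p of 0.0117, and the astrocyte markers Slc1a2 and S100b at 0.0211 and 0.0371. Their part in the member values was not tested.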

How the data were processed

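The authors prepared stranded mRNA libraries, used Salmon 0.14 on rat transcripts of an Ensembl annotation, collapsed transcripts into genes through tximport and normalized with DESeq2 1.18.1, the versions being those of the submitters' processing notes. The deposited signal is a normalized count per gene and library, 1 table per cell type. The authors also deposited variance-stabilized values, on a scale close to log2, which served as an alternative. In the neuron table of those values the libraries of first number 2 depart from the curve that ties counts to values in first number 1 (median deviation 0.0434), and each member's mean is equal in both first numbers to within rounding. That table therefore had the first-number difference removed gene by gene, and a test on it does not count the lost degree of freedom.

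The labels' cell type, treatment and replicate gave the groups, and 0 sample columns were left unused. The values of many genes were no whole multiples of 1 read, so no count test was run. Log2 of normalized count plus 1 was fitted with limma 3.58.1 (lmFit, then eBayes with trend set to true, R 4.3.3), for each cell type alone, over genes with a mean of at least 10. Benjamini-Hochberg adjustment covered every gene tested in that cell type. A gene was called at an unadjusted p under 0.05, the study's own threshold. For single members, two-sided exact permutation p-values are given, which cannot go below 0.0286 in neurons or 0.1 in astrocytes. The fit was tested on simulated data. Figures were drawn with Python 3.11.15 and matplotlib 3.10.9.

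After the group means were removed, AM-Veh and AM-Allo neuron libraries of the same number correlated over genes at 0.296, 0.229, 0.265 and 0.273. Those sharing only the first number correlated nearly as well, at 0.185, 0.236, 0.211 and 0.196, and those of different first numbers at −0.319 to −0.15. The values thus group libraries by first number and hardly show pairing by the whole number. Values with either block are given. Astrocyte libraries of the same number correlated at 0.0241, −0.00698 and 0.0117, and no pairing was used there. Alternatives changed the pseudocount, the filter, the values, the scaling, the trend, the libraries and the block, and those that kept the block in each of these were added after seeing the data.

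The members and lists were chosen with earlier results of these data known. Named are all members, the genes of each other list past the threshold (up to 4) and its 2 highest, and the 3 genes closest in pattern to Gad1, Sst and Abat. Genes of a list that passed only with the block, and genes at 0 used to check the cultures, were named after their values were seen. Some genes that this rule takes are not reported here. Symbols turned into dates, 21 in neurons and 24 in astrocytes, match no list.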

Additional observations from a re-analysis of the deposited data

Results flagged for a closer look

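In neurons the effect of Allo, as a log2 fold change, differed between libraries of first number 2 and first number 1 for 6 members at an unadjusted limma p under 0.05, out of 9 such tests. Of all genes 9.53% passed that threshold. The difference, first number 2 minus first number 1, was 0.51 for Gad1 (Benjamini-Hochberg adjusted p = 0.107 in limma), 0.40 for Gad2 (adjusted p = 0.248) and 0.44 for Slc32a1 (adjusted p = 0.381). It was 0.31 for Sst (limma adjusted p = 0.497), 3.89 for Npy (0.477) and −0.13 for Abat (0.389). None of the 6 passed the adjusted threshold, against 0.0784% of all genes, and Npy rests on a library listed at 0. Each fold change within a first number compares 2 libraries with 2, and what the first number stands for was not given in the labels. No library stood apart in Dixon's test in any of the 18 groups of 4 neuron libraries tested. Each group joined 2 libraries of either first number, so a gap between first numbers widens the range. The test can then hardly single out a library.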

How the results depend on the processing

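In neurons the count of members at an unadjusted p under 0.05 (2) was 4 with the deposited variance-stabilized values, 1 without limma's trend, 4 with either replicate block and 1 to 5 with each library left out. Past an adjusted p (0) it was 3 with the variance-stabilized values and 3 with either replicate block. Of all genes 5.69% passed the unadjusted threshold in the main fit and 11.0% with the block by first number. Of 15314 genes, 158 passed an adjusted p with the variance-stabilized values, 104 with the block by first number and 93 with that by whole number. With the block by first number the adjusted count of members (3) was 0 without the trend and 1 to 3 with each library left out. The 7 members that differed between first numbers became 0 with the variance-stabilized values, from which that difference had been removed. Genes of the other lists called in neurons (5) were 23 with the variance-stabilized values, 28 with the block by whole number, 24 with the block by first number and 4 to 9 with a library left out. In astrocytes the members called (0) became 1 without the filter on low values (Calb2, log2 fold change −1.16 at 0 to 4.16 normalized counts, Benjamini-Hochberg adjusted p of 0.766 in limma), and list genes (6) became 3 without the trend and 3 to 9 with a library left out. Leaving out a library turned the sign for Slc6a11 (log2 fold change −0.0575 to 0.146), Npy (−2.01 to 0.317) and Abat (−0.107 to 0.0204) in neurons and for Abat (−0.0381 to 0.0131) and Sst (−0.227 to 0.0248) in astrocytes, none of them called. The cause of the other shifts was not tested. Gad1, Gad2, Sst and Dlx1 kept a negative log2 fold change in neurons under all 18 alternatives. So did Slc32a1 (−0.274 to −0.0248) and Calb2 (−0.117 to −0.0228), neither called in the main fit. The blocks, the trend and the filter leave a fold change as it is, so only the other alternatives bear on its sign. The replicate block changed no call in astrocytes. Values near 0 in astrocytes cannot show a difference at this depth.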
